A study of Sus scrofa with 102 samples.

Results

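Slow-twitch muscle fibres use their own set of contractile and calcium-handling proteins. The 8 genes that code for such proteins and that are described here were measured in the pig back muscle *Longissimus dorsi*. They are *TNNI1*, *TNNC1* and *TNNT1* (the slow troponin subunits), *MYL3* (a slow and cardiac myosin light chain), *TPM3* (a tropomyosin), *PLN* (phospholamban), *ATP2A2* (the calcium pump SERCA2) and *CASQ2* (calsequestrin 2). A gene was read through the probe set, called a probe from here on, with the highest mean among those that the array annotation gives to its symbol. *ATP2A2* was read through 2 probes set in advance, probe 1 and probe 2, leaving out another that carries its symbol. The 8 genes therefore had 9 probes, of 5449 tested and of 2201 genes with a symbol. Another 4 probes of these genes (1 of *PLN*, 2 of *TPM3* and the remaining *ATP2A2* probe) are described beside them.

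One array was hybridized per pig, for 102 pigs of an Iberian by Landrace backcross, fed without restriction and slaughtered in 3 batches. There were 55 females and 47 males. Batch 1 held 14 pigs (8 females and 6 males, aged 171 to 181 days), batch 3 held 18 (11 females and 7 males, 178 to 181 days) and batch 2 held 70 (36 females and 34 males, 178 to 184 days). Carcasses of females weighed 68.6 ± 8.98 kg and those of males 73.2 ± 11.1 kg, and the weights were 65.9 ± 10.2, 64.6 ± 11.7 and 73.3 ± 8.85 kg for batches 1, 3 and 2 (SD). The pigs shared parents through the backcross, and no control line was on the arrays.

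In a slow fibre, calcium that leaves the sarcoplasmic reticulum binds troponin C. Troponin I then loosens its hold on actin, troponin T passes the change on to tropomyosin, and myosin can pull. SERCA2 pumps the calcium back, phospholamban slows the pump until it is phosphorylated, and calsequestrin stores calcium inside the reticulum. Fast fibres use other genes for most of these steps, such as *ATP2A1* for the pump. The pig *Longissimus dorsi* is known as a mainly fast muscle with slow fibres in islets. In a piece of whole muscle, fewer slow fibres and less RNA of a gene in each slow fibre cannot be told apart.

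The values are log2 intensities, in which a difference of 1 is a 2-fold difference, and intensities of different probes do not rank genes. Array medians lay between 6.20 and 6.68. Markers of striated muscle were bright (*DES* 12.98, *ACTN2* 12.81 and *TCAP* 12.11 on average). For *MYH7* and *MYL2*, of slow myosin, no tested probe carried their symbol alone, so they could not be read. An actin control probe pair, whose 5′ minus middle difference is lower in shorter or less complete RNA, gave −1.28 ± 0.30 in batch 1, −1.32 ± 0.43 in batch 3 and −0.80 ± 0.29 in batch 2 (SD). Of the female arrays, 3 of batch 2 carried Y-linked *EIF1AY* signal above the midpoint of 6.82. The array of male pig 53 of batch 3 was least like the others, with a median correlation of 0.746 with them over all probes, against 0.820 for the next. Some results, but not all, are also given without these arrays. Once sex, batch and weight were removed, none of the 9 probes had a correlation past the threshold with the actin difference or with the spike-in mean (18 comparisons, lowest adjusted permutation p = 0.958). Differences between batches in the actin control do not enter that comparison. Differences were tested with limma on sex, batch and carcass weight, and p-values were adjusted by Benjamini-Hochberg over all 5449 probes, with a threshold of 0.05.

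The 3 troponin probes were among the brightest on the array, above 99.7% of probes, and they spanned a wide range between pigs. *TNNI1*, the inhibitory subunit, ranged from 11.02 through a median of 13.31 to 14.37 in females and from 11.92 through 13.43 to 14.63 in males. *TNNC1*, the calcium-binding subunit, ran from 11.56 through 13.90 to 14.91 in females and from 12.88 through 13.94 to 15.04 in males. *TNNT1*, which ties the complex to tropomyosin, lay between 11.98 and 15.25 in females (median 14.26) and between 13.17 and 15.32 in males (median 14.22). The sexes overlapped along nearly their whole range, and the lowest pigs for all 3 genes were females. *MYL3*, the essential light chain of slow myosin, spread further, from 8.20 through 11.44 to 13.22 in females and from 10.01 through 11.64 to 13.40 in males. Its SD of 1.03 was larger than that of 91.3% of probes.

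Of the calcium genes, *PLN* was bright and variable. It ranged from 7.53 through 10.96 to 13.44 in females and from 9.42 through 10.83 to 13.51 in males. *ATP2A2* had mid-range signal, with 5.25 to 7.82 (median 6.43) in females and 5.08 to 8.86 (median 6.77) in males by probe 1, and 5.55 to 7.99 (median 6.73) in females and 5.14 to 9.16 (median 6.90) in males by probe 2. *TPM3*, which codes for the tropomyosin of slow fibres but also for cytoplasmic tropomyosins of many cell types, lay between 7.08 and 9.21 in females (median 8.11) and between 7.13 and 9.41 in males (median 8.00). *CASQ2* was near the floor of the array: its mean of 3.39 exceeded 3.14% of probes. It ranged from 2.20 through 3.07 to 6.32 in females and from 2.60 through 3.08 to 7.34 in males. Values over 4 were found in 19 pigs, 11 of 55 females and 8 of 47 males. By batch these were 1 of 14 pigs in batch 1, 1 of 18 in batch 3 and 17 of 70 in batch 2.

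**Figure D1:**
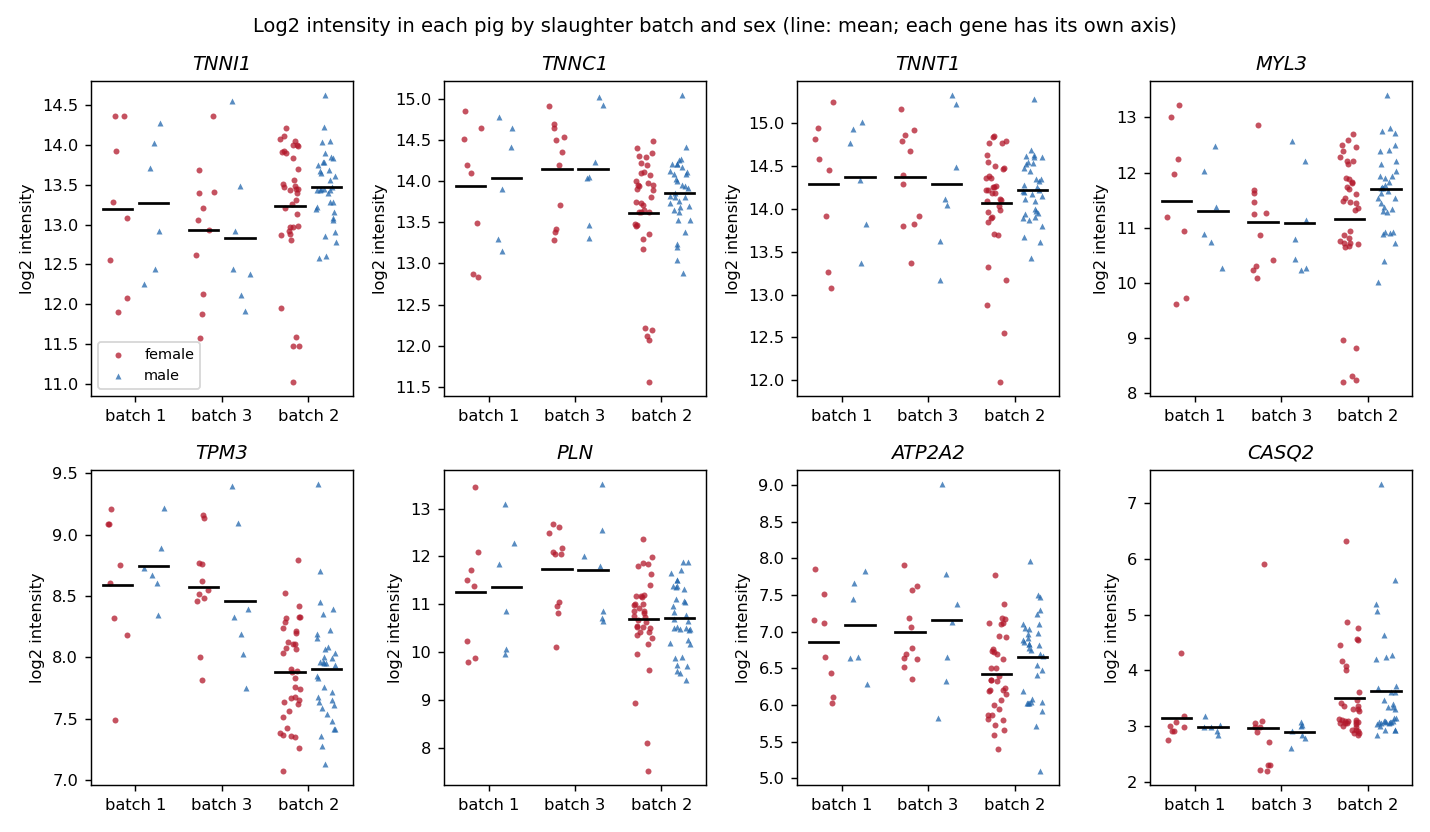
Log2 intensity (vertical axes, 1 scale per gene) of the 8 genes in 102 pigs by slaughter batch (horizontal axis), with females as circles, males as triangles and the mean of each group as a line; *ATP2A2* is the mean of its 2 probes. Batches 1 and 3 sit above batch 2 for *TPM3* and *PLN*, a few batch 2 females lie far below the rest for the troponins and *MYL3*, and most pigs are near 3 for *CASQ2*.

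No member differed between females and males at the threshold. In the limma fit 0 of 9 probes were called for sex, against 1422 of all 5449 (26.1%), and 2077 of all probes had an unadjusted p under 0.05. *MYL3* had the largest estimate, at 11.20 ± 1.18 in females and 11.56 ± 0.79 in males (SD), with a difference of −0.28 (95% interval −0.68 to 0.12, adjusted p = 0.311, limma). *TNNI1* differed by −0.12 (−0.41 to 0.17), *TNNC1* by −0.15 (−0.40 to 0.09) and *TNNT1* by −0.10 (−0.33 to 0.14). The intervals of *PLN* (−0.39 to 0.34) and of *ATP2A2* probe 1 (−0.43 to 0.09) also held 0, so differences within these intervals were not excluded. The estimates of *TNNI1*, *TNNC1*, *TNNT1*, *TPM3* and *PLN* changed sign under quantile normalization, which moved the share of all called probes that were higher in females to 56.0%, against 45.0% as deposited.

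The spread, unlike the mean, looked unequal between the sexes within batch 2. There the SD of *MYL3* was 1.25 in 36 females and 0.72 in 34 males, and that of *TNNI1* was 0.82 in females and 0.45 in males. In batch 1 the SD of *MYL3* was 1.37 in females and 0.83 in males, but in batch 3 it was 0.83 in females and 0.95 in males, and that of *TNNI1* 0.83 in females and 0.92 in males. These differences in spread were not tested. The 5 lowest pigs for *MYL3* were all batch 2 females: pig 91 at 8.20, pig 19 at 8.24, pig 99 at 8.30, pig 35 at 8.81 and pig 38 at 8.96. The same 5 pigs were the lowest for *TNNC1*, at 11.56 to 12.22. For *TNNI1*, 4 of them were among the 5 lowest. None of the 3 arrays with *EIF1AY* signal was among them.

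No member had a slope on carcass weight that passed the test. In the limma fit 0 of 9 probes had a slope on weight past the threshold, and 0 of all 5449 did (0.0%), with 589 of all probes at an unadjusted p under 0.05. The steepest slopes were 0.16 ± 0.07 per 10 kg for *ATP2A2* probe 1 (SE, unadjusted p = 0.025, adjusted p = 0.439, limma) and 0.16 ± 0.11 for *MYL3* (SE, adjusted p = 0.578, limma). Without sex and batch in the model, 2 of 9 probes were called, *TNNI1* with a slope of 0.16 and *TPM3* with one of −0.14, along with 3412 of all probes. Neither the sex by weight nor the sex by batch interaction was past the threshold for any of the 9 probes.

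Slaughter batch separated some members and not others. Read by the 9 probes, the calcium pump, its inhibitor and *TPM3* were higher in batches 1 and 3 than in batch 2. With the actin difference in the fit, the batch 1 minus batch 2 intervals of *PLN* (−0.13 to 1.07) and *ATP2A2* probe 1 (−0.05 to 0.79) held 0. *TNNC1* was higher and *CASQ2* lower in batch 3, while their intervals for batch 1 minus batch 2 held 0 (−0.05 to 0.68 for *TNNC1* and −0.93 to 0.03 for *CASQ2*), and *TNNI1*, *TNNT1* and *MYL3* did not pass the test. That makes 6 of 9 probes, whereas 4721 of all 5449 (86.6%) passed, so the members were not called more often than other probes. Batches also differed in the actin control and, for batch 1, in age. The median of all probes was −0.11 for batch 1 minus batch 2 and −0.17 for batch 3 minus batch 2, and 0.01 and −0.01 after quantile normalization. The part of RNA quality in these differences was not tested beyond the fit that holds the actin difference.

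Between batches 3 and 2 *PLN* had the largest difference of the 9 probes, while between batches 1 and 2 *TPM3* and *ATP2A2* probe 2 had larger ones. It ranged from 9.79 through 11.45 to 13.44 in batch 1, from 10.11 through 12.03 to 13.51 in batch 3 and from 7.53 through 10.75 to 12.37 in batch 2. Batches 1 and 3 reached higher than batch 2, but much of their range lay within it. The difference from batch 2 was 0.61 ± 0.27 for batch 1 and 1.04 ± 0.25 for batch 3 (SE, adjusted p = 0.000308 across batches, limma), and the batch 3 difference exceeded that of 93.7% of probes. With the actin difference in the fit these were 0.47 and 0.89 (adjusted p = 0.0136, limma). The other *PLN* probe gave 0.35 ± 0.28 and 0.78 ± 0.26 (SE).

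The means of *TPM3* were 8.65 ± 0.47, 8.53 ± 0.47 and 7.89 ± 0.42 for batches 1, 3 and 2 (SD), with differences from batch 2 of 0.74 ± 0.14 and 0.61 ± 0.12 (SE). Its other probes were less even, the second with 0.46 ± 0.14 and 0.07 ± 0.13 and the third with 0.22 ± 0.17 and 0.49 ± 0.16 (SE). *ATP2A2* probe 2 averaged 7.22 ± 0.61, 7.29 ± 0.75 and 6.65 ± 0.56 in batches 1, 3 and 2 (SD), with differences of 0.66 ± 0.18 and 0.74 ± 0.16 (SE). Its probe 1 gave 0.39 ± 0.19 and 0.56 ± 0.18 (SE, adjusted p = 0.0057, limma), and it missed the threshold when sex and weight were left out of the fit (adjusted p = 0.052). *CASQ2* averaged 3.07 ± 0.37 in batch 1, fell to 2.94 ± 0.80 in batch 3 and stood at 3.57 ± 0.86 in batch 2 (SD, adjusted p = 0.0224, limma). That call was lost with the actin difference in the fit (adjusted p = 0.124) and under quantile normalization (adjusted p = 0.123).

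**Figure D2:**
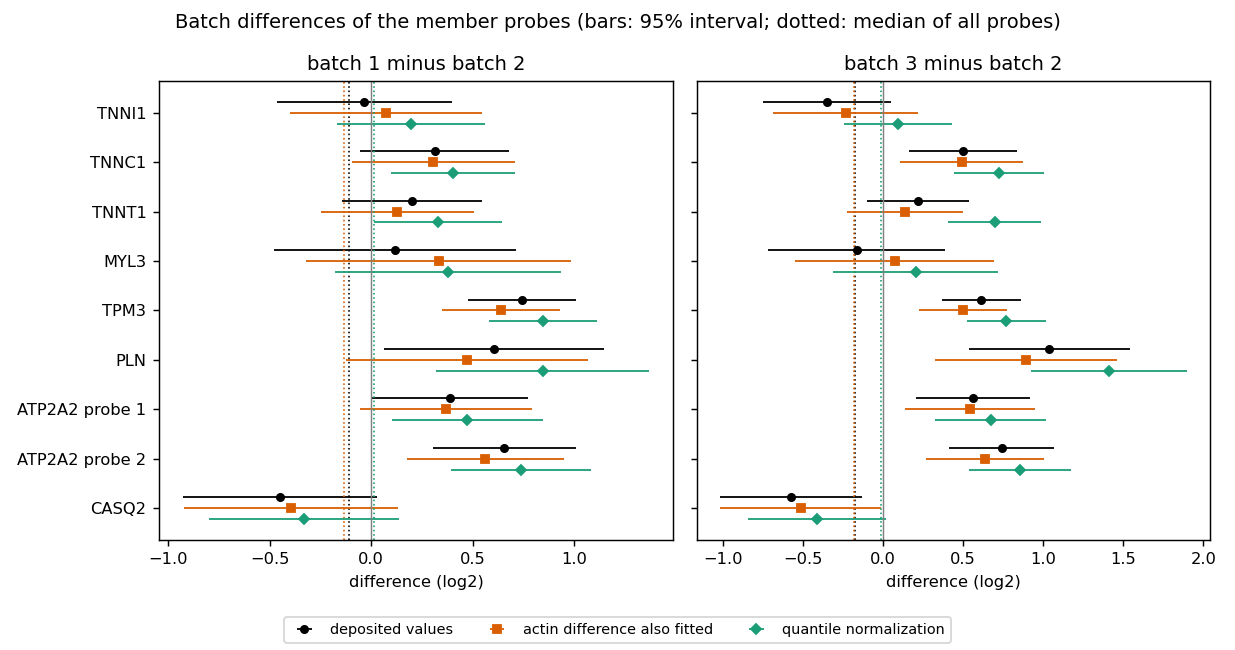
Differences between slaughter batches (horizontal axes, log2, with 95% intervals) for the 9 probes, from the deposited values, with the actin difference also fitted, and after quantile normalization; dotted lines mark the median of all 5449 probes. *TPM3*, *PLN* and both *ATP2A2* probes lie right of 0 in every fit for batch 3 minus batch 2, while *TNNI1* and *MYL3* straddle 0.

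The troponin subunits, which work in a fixed complex, did not shift alike between batches. The means of *TNNC1* were 13.98 ± 0.72, 14.15 ± 0.60 and 13.73 ± 0.60 for batches 1, 3 and 2 (SD), so that it was 0.50 ± 0.17 higher in batch 3 than in batch 2 (SE, adjusted p = 0.0126, limma, and 0.04996 with the actin difference in the fit). *TNNI1* averaged 13.23 ± 0.89, 12.89 ± 0.84 and 13.35 ± 0.67 in batches 1, 3 and 2 (SD), a difference of −0.35 ± 0.20 between batches 3 and 2 (SE, adjusted p = 0.234, limma). *TNNT1* gave 0.22 ± 0.16 (SE, adjusted p = 0.300, limma), and 0.70 with a call under quantile normalization. The log2 ratio of *TNNI1* to *TNNC1* within an array, chosen after the values were seen, was −0.75 ± 0.24 in batch 1, −1.25 ± 0.44 in batch 3 and −0.38 ± 0.17 in batch 2 (SD, permutation test across batches after removing sex and weight, p = 1e-05, the smallest that 100000 permutations can give). Under quantile normalization the same ratio was −0.65, −1.09 and −0.40, again at the smallest p. The ratio of *TNNC1* to *TNNT1* differed between batches as deposited (−0.35, −0.19 and −0.41) but not after quantile normalization (permutation p = 0.660). The part of signal near the top of the scale and of RNA quality in these ratios was not tested, other than that the *TNNI1* to *TNNC1* result stayed at the smallest p with the actin difference removed and without the array of male pig 53.

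Across pigs, once sex, batch and weight were removed, the members rose and fell together. All 28 pairs of the 8 genes were positively correlated, with r from 0.38 to 0.95 (median 0.66, n = 102 pigs, with *ATP2A2* as the mean of its probes) and Spearman's rho from 0.26 to 0.97. The largest permutation p of r was 0.00011, and the lowest rho, of *TPM3* with *CASQ2*, had p = 0.0082. In limma fits of each of 5448 other probes on a member, each of the 9 probes had all its 8 (for *ATP2A2*, 7) probes of other members among those that rose with it. The share of all probes that rose was 16.8% for *TNNI1*, 11.7% for *TNNC1*, 10.9% for *TNNT1*, 27.4% for *MYL3*, 17.5% for *TPM3*, 9.56% and 12.5% for *ATP2A2* probes 1 and 2, 9.54% for *PLN* and 8.11% for *CASQ2*. Exceptions appeared after quantile normalization, where 6 of 8 rose with *TNNC1* and 7 of 8 with *TPM3* and with *CASQ2*, and in batch 2 alone, where 3 of 8 rose with *TPM3*, 8 of 8 with *CASQ2* and all but 1 with each of the others. The median r of *TNNI1* was 0.78 with the other members and 0.04 with all probes. A first principal component held 70.5% of the variance of the 8 genes.

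The tightest group was contractile. *TNNI1* and *TNNC1* had r = 0.95, *TNNI1* and *TNNT1* 0.94 and *TNNC1* and *TNNT1* 0.95. *MYL3* followed them at 0.88 to 0.91. Among these 4 genes the lowest r was 0.87 within batch 1, 0.84 within batch 3 and 0.89 within batch 2, and 0.86 once the 2 pigs farthest from the median were left out. *PLN*, a reticulum protein and no part of the sarcomere, was nearly as close, with r from 0.84 to 0.88 with the troponins and 0.71 with *MYL3*. *ATP2A2*, the pump that *PLN* holds back, had r = 0.74 with *PLN* and 0.63 to 0.72 with the contractile 4. Of 102 pigs, 40 had *TNNI1*, *TNNC1*, *TNNT1*, *MYL3* and *PLN* all above their fitted values and 31 had all 5 below. All 8 genes were above in 14 pigs and below in 19.

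*CASQ2* and *TPM3* stood further off. *CASQ2* had r from 0.39 to 0.44 with the other members and rho from 0.26 to 0.47, with most pigs near background. Within batch 1, 2 of its 7 correlations had an unadjusted permutation p under 0.05. *TPM3* had r from 0.38 to 0.45. With *MYL3* it had 0.84 in batch 3 and 0.27 in batch 2, and with *TNNT1* 0.79 and 0.29, whereas with *CASQ2* it had 0.37 in batch 3 (permutation p = 0.139) and 0.46 in batch 2 (p = 0.00015). In batch 2 its correlation with *PLN* was 0.23 (permutation p = 0.056). The difference between batches in these correlations was not tested.

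**Figure D3:**
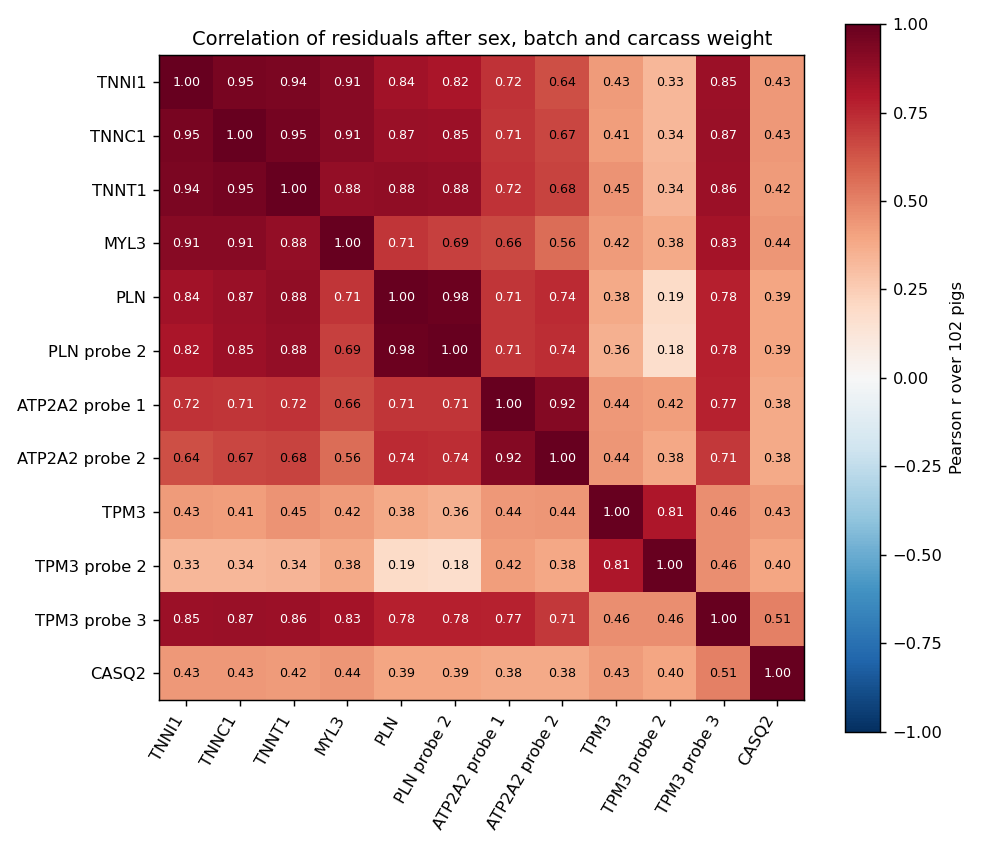
Pearson's r (colour and number) between residuals of 12 probes of the 8 genes over 102 pigs after sex, batch and carcass weight were removed. The troponins, *MYL3*, *PLN* and the third *TPM3* probe form a block of 0.71 or more, while the first 2 *TPM3* probes reach at most 0.46 outside their own pair.

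Individual pigs showed the pattern across genes. Female pig 19 of batch 2 had the lowest mean of the 8 standardized residuals (−2.65), with 11.02 for *TNNI1*, 11.56 for *TNNC1*, 11.98 for *TNNT1*, 8.24 for *MYL3* and 7.53 for *PLN*, between 3.2 and 3.8 SD under the fitted values. Its *TPM3* was 1.13 SD and its *CASQ2* 0.71 SD under. At the other end, male pig 80 of batch 2 had the highest *TNNI1* (14.63), *TNNC1* (15.04), *MYL3* (13.40), *TPM3* (9.41) and *CASQ2* (7.34) of all pigs. Its *TPM3* was 3.51 SD over the fitted value, and its *PLN* 1.28 SD. Its mean of the 8 standardized residuals was the highest (2.36), followed by female pig 49 of batch 3 (1.77), female pig 13 of batch 1 (1.67) and male pig 46 of batch 3 (1.58), all with the 8 genes above their fitted values. Male pig 46 had the highest *TNNT1* (15.32) and *PLN* (13.51) of all pigs.

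**Figure D4:**
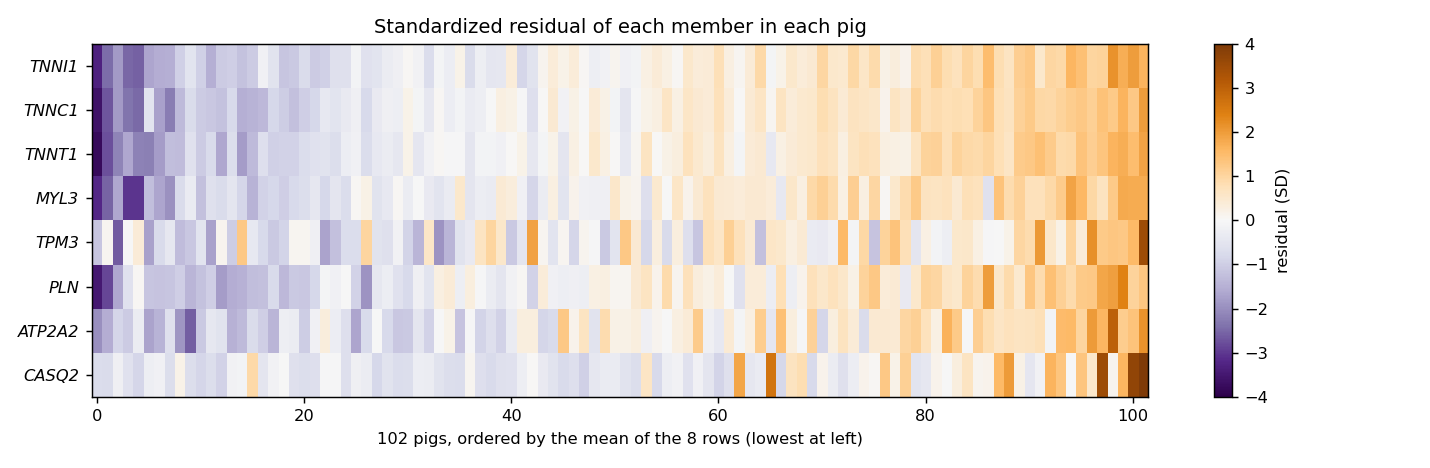
Standardized residual (colour, in SD after sex, batch and carcass weight) of the 8 genes (rows) in 102 pigs (columns) ordered by the mean of the rows. The troponins, *MYL3* and *PLN* change together from left to right, *TPM3* is patchy, and *CASQ2* is high in a few pigs at the right.

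Probes that share a symbol did not always move alike. The 2 *PLN* probes had r = 0.98 and the 2 *ATP2A2* probes r = 0.92. The *ATP2A2* probe that was left out carries that symbol in the array annotation used here, while the study itself assigned it to another gene, *RDH16*, so it may not measure *ATP2A2*. It had r = 0.23 with probe 1 (permutation p = 0.0229, rho 0.25) and 0.14 with probe 2 (p = 0.167, rho 0.18). It correlated positively with probe 1 in batch 1 (0.61) and negatively in batch 3 (−0.35). In the limma fits 0 of the 7 other member probes moved with it. Of all 5448 probes, 289 rose and 95 fell with it, so 0 of 7 is near the share among all probes.

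*TPM3* had 3 probes. Its first and second probes had r = 0.81 with each other and 0.46 with the third. That probe 3 was dim, at 4.22 ± 0.60 in females and 4.36 ± 0.59 in males (SD), yet it followed the slow genes closely, with r = 0.87 with *TNNC1*, 0.86 with *TNNT1*, 0.85 with *TNNI1*, 0.83 with *MYL3* and 0.78 with *PLN*. The first probe had 0.41, 0.45, 0.43, 0.42 and 0.38 with the same genes. With *CASQ2* the third probe had 0.51 and the first 0.43. The comparison of these probes was chosen after their values were seen, so it is a description.

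The first *TPM3* probe rose with 6 of 7 genes of the slow-fibre list described below, against 4 of 7 for the third, and also with markers of other cells. All 6 macrophage markers measured rose with it, with r from 0.39 for *C1QA* to 0.54 for *CTSS*, as did 5 of 7 endothelial markers, with *PECAM1* at 0.66 (rho 0.62, permutation p = 1e-05, and 0.70, 0.73 and 0.63 in batches 1, 3 and 2), and 5 of 9 fibroblast markers such as *FN1* at 0.42. With the third probe, which had 16.9% of all probes rising with it, 0 of 6 macrophage and 7 of 7 endothelial markers did. *TNNI1* rose with 0 of 6 macrophage, 6 of 7 endothelial and 0 of 9 fibroblast markers (2 of 7 endothelial markers after quantile normalization), and 1 fibroblast marker fell. *MYL3*, with which 27.4% of all probes rose, had 3 of 6 macrophage and 7 of 7 endothelial markers. *CASQ2* and *ATP2A2* probe 2 had 1 of 6 macrophage markers each, and *TNNC1*, *TNNT1*, *PLN* and *ATP2A2* probe 1 had 0. The r of the 6 macrophage markers with the third probe lay between 0.13 and 0.24. Averaged over its 6 markers, the macrophage level ranged from 4.13 to 7.98 in batch 1, 4.71 to 6.19 in batch 3 and 4.31 to 7.41 in batch 2. The nearest genes to the first probe were *TPM4*, a cytoplasmic tropomyosin, by both of its probes (r = 0.67 and 0.66), and *AKAP2*, an anchoring protein (0.66). The part of other cells in the *TPM3* signal was not tested.

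Other slow-fibre genes were read from a list made up alongside the members. Of its 20 genes 7 were measured, and 4 of these 7 rose with *TNNI1*, *TNNC1*, *TNNT1*, *MYL3* and *PLN* alike, against the shares of all probes given above. *PDLIM1*, a PDZ and LIM domain protein that binds alpha-actinin, had r = 0.86 with *TNNI1* (rho 0.88, 0.85 without the 2 farthest pigs, permutation p = 1e-05) and 0.97, 0.90 and 0.80 within batches 1, 3 and 2. *LDHB*, the heart-type lactate dehydrogenase subunit, had r = 0.90 with *TNNT1* and 0.85 with *PLN*. *HSPB6*, a small heat shock protein, had r = 0.83 with *MYL3* and 0.56 with *PLN*. *FABP3*, the heart-type fatty acid carrier, had r = 0.75 with *TNNT1* and with *PLN*. The heart and foetal isoforms *TNNT2* and *ACTC1* and the stress gene *ANKRD1* did not pass the test with *TNNI1* (r = 0.10, 0.07 and 0.14). *TNNT2* was near the floor of the array (mean 3.36, above 2.83% of probes).

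No measured gene of the fast-fibre list fell with *TNNI1*, with which 535 of all 5448 probes fell (9.82%). Of its 28 genes 4 were measured. With *TNNI1*, *ATP2A1*, the fast calcium pump, had r = 0.03, glycogen phosphorylase *PYGM* 0.07 and *GPD1* −0.08, and *GYS1* rose with it (r = 0.29, 0.08 and no call under quantile normalization). With *PLN*, *GPD1* (r = −0.41) and *ATP2A1* (−0.31) fell while *PYGM* had −0.26 (adjusted p = 0.0563, limma), beside 353 of all 5448 probes that fell. With *ATP2A2* probe 2, 3 of the 4 fell (median r = −0.28), beside 348 of all probes. Just 1 of the 4 fell with *ATP2A2* probe 1 (210 of all probes) and 1 with *TPM3* (563 of all probes). None fell with *TNNC1*, *TNNT1*, *MYL3* or *CASQ2*. Between batches all 4 were lower in batches 1 and 3, *ATP2A1* by −1.37 and −1.42 relative to batch 2, whereas *ATP2A2* was higher there. Of the 7 measured slow-list genes, 4 were called lower in both batches and 1 higher (medians −0.15 and −0.67). After quantile normalization 3 were lower and 3 higher. Called lower as deposited were also 9 of 12 calcium-handling genes outside the members, 7 of 10 sarcomere genes and 7 of 9 oxidative genes. In each of these lists 2 were higher. Of the 4721 probes called for batch, 2582 were lower in batch 1 and 2600 in batch 3. These 2 counts take each batch alone, whereas the list counts are of genes that went the same way in both batches. The medians of the fast list were −1.42 and −1.86 as deposited, −1.19 and −1.51 under quantile normalization, and −0.90 and −1.17 with the actin difference in the fit.

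Calcium-handling genes outside the members were read beside *MYL3* and *PLN*. Of 12 measured, 8 rose and 1 fell with *MYL3*, beside 1495 and 976 of all 5448 probes. With *PLN* 2 rose and 1 fell, beside 520 and 353 of all probes. After quantile normalization these were 4 and 1 with *MYL3* (941 and 1070 of all probes), and 2 and 3 with *PLN* (536 and 544 of all probes). The difference between the counts was not tested. *S100A1*, a calcium sensor that acts on the pump and the release channel, had r = 0.60 with *TNNI1* (rho 0.57, permutation p = 1e-05) and 0.35 with *PLN*. Calmodulin gene *CALM2* fell with *TNNI1* (r = −0.44, rho −0.45, permutation p = 1e-05). *RYR1*, the release channel, had r = 0.19 with *TNNI1* and did not pass the test.

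Among 14 measured regulators of muscle growth and fibre type, 3 rose and 2 fell with *TNNI1*. Of all probes, 16.8% rose and 9.82% fell with it. The regulators that rose were *TEAD4* (r = 0.41), *HDAC5* (0.29) and *FBXO32* (0.26). Myostatin, *MSTN*, a brake on muscle growth, fell with *TNNI1* (r = −0.51, rho −0.49, permutation p = 1e-05) and with *TNNC1* (−0.58), *TNNT1* (−0.55), *MYL3* (−0.56) and *PLN* (−0.48). *SOX6*, known in mice as a repressor of slow-fibre genes, was near the floor of the array (mean 3.66, above 5.51% of probes). It had r = −0.28 with *TNNI1* (rho −0.32, permutation p = 0.0041), −0.34 with *TNNC1* and −0.32 with *PLN*. *MSTN* and *SOX6* remained past the threshold with *TNNI1* under quantile normalization, where no regulator rose with it. *PPARGC1A*, a coactivator that favours oxidative fibres, had r = 0.06 with *TNNI1* and 0.10 with *PLN*, and *PPARD* 0.06 and −0.04. *PPARGC1A* was lower in females (difference −1.43) and *MSTN* higher (0.57), although the members differed in neither direction at the threshold.

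Some oxidative and structural genes rose with the contractile members and some did not pass the test. Of 9 nuclear-coded genes of oxidative phosphorylation, an assembly factor included, 6 rose with *TNNI1* and with *MYL3*, 5 with *TNNT1* and 2 with *PLN*. The shares of all probes that rose were 16.8% for *TNNI1*, 27.4% for *MYL3*, 10.9% for *TNNT1* and 9.54% for *PLN*. *NDUFS7*, a complex I subunit, had r = 0.75 with *TNNI1* (rho 0.71, permutation p = 1e-05), and *SDHA*, of complex II, 0.65. After quantile normalization 5 rose with *TNNI1*, as did 271 of all 5448 probes. Of 10 sarcomere genes common to fibre types, 6 rose with *TNNI1*, led by *ACTN2*, the Z-disc alpha-actinin (r = 0.69), and *TCAP* (0.64), and 3 did after quantile normalization. The capping protein genes *CAPZB* (0.16) and *CAPZA2* (0.01) and the complex I genes *NDUFS3* (0.12) and *NDUFV2* (0.06) were among those that did not pass with *TNNI1*.

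**Figure D5:**
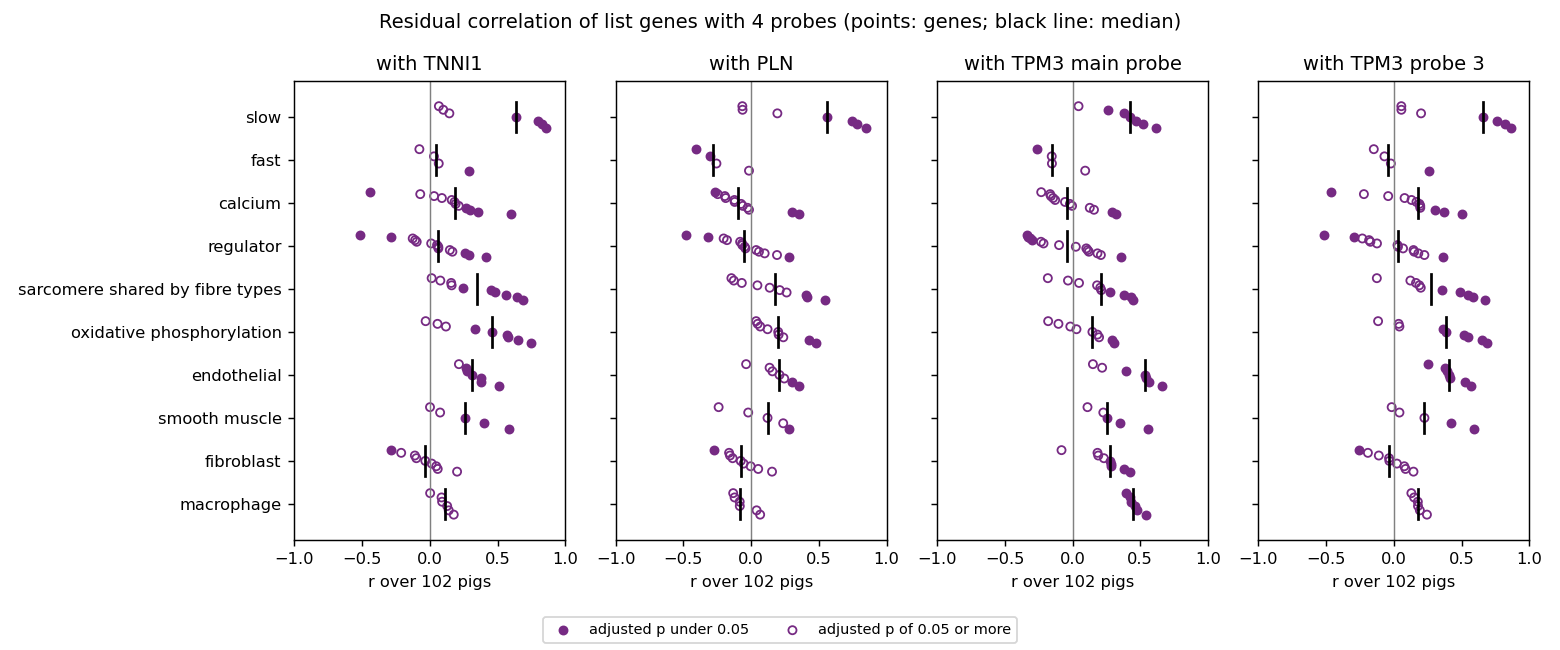
Residual correlation (horizontal axes, Pearson's r over 102 pigs) of measured genes of 10 lists with *TNNI1*, *PLN* and the first *TPM3* probe and the third one; filled points had an adjusted p under 0.05 in limma, open points did not, and black lines are medians. Among the probes shown, macrophage markers are filled only beside the first *TPM3* probe. Beside *TNNI1*, *PLN* and the third *TPM3* probe, 4 of 7 slow genes lie above 0.5.

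By the mean of the 8 standardized genes, the named genes most like the members were *PDLIM1* (r = 0.91 over 102 pigs) and *LDHB* (0.89). They were followed by *MRLC2*, a myosin regulatory light chain of non-sarcomeric myosin (0.79), *FABP3* (0.76), *HSPB6* (0.75 and 0.72 by its 2 probes), *DDAH1*, which breaks down methylarginines (0.73), *ME3*, a mitochondrial malic enzyme (0.73), *C1H9orf16* (0.70) and *ECI1*, an enzyme of fatty acid oxidation (0.70). The most opposite were *VKORC1L1*, a vitamin K epoxide reductase (−0.64), *FAM69A* (−0.59), *MSTN* by both probes (−0.57 and −0.53) and *MAD2L1*, of the spindle checkpoint (−0.55). In all, 121 of 5436 other probes had r over 0.5 and 33 had r under −0.5. These genes were picked for their likeness, so their r values are a description.

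Single members had further neighbours of their own. *PTGR2*, a prostaglandin reductase, was nearest to *ATP2A2* probe 2 (r = 0.72, rho 0.72), and *ACAA2*, a mitochondrial thiolase, had r = 0.68 with that probe and 0.95 within batch 3. *STAT5A*, a transcription factor, was the most opposite to *PLN* (−0.57) and to *ATP2A2* probe 2 (−0.55). For *CASQ2* the nearest were *MRLC2* (0.58, rho 0.40), *PDLIM1* (0.56, rho 0.45) and *HSPB7*, a small heat shock protein (0.55, rho 0.47). The lower rho values stand beside the few pigs with high *CASQ2*.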

How the data were processed

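RNA of *Longissimus dorsi* from 102 pigs was hybridized to Affymetrix porcine arrays, 1 per pig. The authors extracted signals with Affymetrix software, checked array quality and deposited log2 intensities normalized with GCRMA, whose version the sources used here do not give. Their table held 5493 probe sets and was already filtered on variability. Of those other than control probes, 98.0% had more than 20% of arrays beyond 1.5-fold of their median. Leaving out 44 control probes, 5449 were tested. The annotation paired 2639 of these with a single symbol, 49 with more than 1 and 2761 with no symbol.

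Groups (sex, slaughter batch) and carcass weight came from the labels. Each probe was fitted in limma 3.58.1 (R 4.3.3) on sex, batch and weight, with Benjamini-Hochberg adjustment. Probes moving with a member were found with the member added to that fit. Correlations used residuals of the same model, with 100000 permutations (Python 3.11.15, numpy 2.4.6, scipy 1.17.1). The number of arrays limits precision. P-values treat pigs as independent although they were related, and the pedigree was not used here.

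Named were all members, measured genes of the slow, fast, calcium and regulator lists, and by rule the 3 named probes most like and most opposite to each member and the 10 for the mean of the members. Cell markers, oxidative and sarcomere genes and low or high pigs given by name were chosen after their values were seen. The members and lists were chosen with earlier results of these data known. Alternatives covered normalization, covariates, array weights, batch as a random block, batch 2 alone, single sexes, other probes and arrays left out. Scripts were tested on simulated data.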

Additional observations from a re-analysis of the deposited data

Results flagged for a closer look

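Within batch 1 females, pig 13 stood apart for *CASQ2*, at 4.31, with the nearest of the other 7 females at 3.17 (n = 8). The same pig was above its fitted value for all 8 genes. Of 27 groups of 4 to 10 pigs examined in this way 1 was picked out, and chance picks out about 1 in 20.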

How the results depend on the processing

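The values below changed sign relative to those reported, and none was past the threshold in the alternative. For females minus males, quantile normalization gave 0.0216 for *TNNI1*, 0.0010 for *TNNC1*, 0.0476 for *TNNT1*, 0.0139 for *TPM3* and 0.0829 for *PLN*. Fitting sex alone gave 0.0281 for *TPM3* and 0.0372 for *PLN*, the second *PLN* probe gave 0.0012, and array weights gave 0.00034 for *CASQ2*. For batch 1 minus batch 2, *TNNI1* had 0.20 with quantile normalization and 0.0719 with the actin difference fitted, and *MYL3* had −0.14 with age, −0.0151 with batch alone and −0.19 with array weights. For batch 3 minus batch 2, quantile normalization gave 0.0919 for *TNNI1* and 0.20 for *MYL3*, and the actin difference 0.0717 for *MYL3*. The slope on 10 kg of weight was −0.0262 for *TNNT1* with quantile normalization. With weight alone it was −0.0020 for *TNNT1* and for *ATP2A2* probe 2 and −0.14 for *PLN*. The third *TPM3* probe gave 0.0858. *PLN* had −0.0010 with batch as a random block, −0.0153 in batch 2 alone, −0.0043 without the array of male pig 53 and −0.0334 by its second probe. The *TNNC1* to *TNNT1* ratio, batch 3 minus batch 2, was −0.0186 after quantile normalization. The cause of these changes was not tested.

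Weight called 2 members and 3412 probes when fitted alone, 126 probes with array weights, 2 without the array of male pig 53, and 1 with the spike-in mean, with batch as a random block or without the 3 arrays carrying *EIF1AY* signal. Probes that moved with a member numbered 395 for *TNNI1* (1452 as deposited) and 213 for *TNNC1* (1072) after quantile normalization. In batch 2 alone they were 648 for *TNNC1*, 286 for *TNNT1* (950), 755 for *TPM3* (1518), 162 and 188 for *ATP2A2* probes 1 and 2 (731 and 1030), 222 for *PLN* (873) and 350 for *CASQ2* (727), from 70 pigs in place of 102. Quantile normalization moved the share of these probes that rose to 82.6% for *TNNC1* (59.5% as deposited), 46.8% for *MYL3* (60.5%), 52.7% and 49.3% for *ATP2A2* probes 1 and 2 (71.3% and 66.2%), 49.6% for *PLN* (59.6%) and 47.0% for *CASQ2* (60.8%).

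Leaving out the array of male pig 53 and comparing the third *TPM3* probe were chosen after seeing the data. No paired analysis was possible because the groups share no replicate numbers. Signal near the floor limits *CASQ2*, *SOX6* and *TNNT2*.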
